A study of Sus scrofa with 10 samples.

Results

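Cardiomyocyte nuclei from minipigs that received deoxycorticosterone acetate (DOCA) together with JK07 were compared with those of controls, to describe which transcripts still differed from vehicle under both agents. The groups were taken from the sample titles and took in 8 of the 10 libraries of the series. The control group held 5 libraries (numbers 1 to 5) labelled with phosphate-buffered saline, and the DOCA plus JK07 group held 3 (numbers 8 to 10). The remaining 2 libraries (6 and 7) came from DOCA alone and entered neither group of the main test. Their values are set beside some of the named genes, and they also entered the normalisation factors and 1 alternative model. All were labelled as wild type heart cardiomyocytes of Sus scrofa, and the measured material was nuclear RNA of sorted cells. Doses, times, ages, the heart chamber and the sorting marker are not stated in the labels. The labels did not say that each library came from its own animal, so a p-value reflects only how these libraries vary, which may be technical.

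DOCA is a steroid that acts on the mineralocorticoid receptor, which drives sodium retention in the kidney and is also present in heart muscle cells. In animals it is used to load the circulation and raise blood pressure. The title of the series calls JK07 an ERBB4 agonist. ERBB4 is a receptor tyrosine kinase of cardiomyocytes that is activated by neuregulins, pairs with ERBB2 and signals to growth and survival pathways through PI3K and MAPK. RNA taken from nuclei holds many transcripts that are still being made or processed, so it lies closer to transcription than RNA of whole cells does.

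Outside the ribosomal RNA scaffolds and the mitochondrial genome the 5 control libraries held 8.67 to 13.9 M estimated counts (M, mega), and the DOCA plus JK07 libraries held 9.03 to 12.9 M. Libraries 6 and 7 of DOCA alone held 6.87 and 3.30 M. Of 13480 expressed genes, 1.02% to 5.17% were listed at 0 in the controls, 1.5% to 5.78% under DOCA plus JK07 and 24.2% and 28.1% under DOCA. A gene listed at 0 may have had low coverage or none, so no fold was read against it. Levels of single genes are given as CPM, the counts per 1000000 of an adjusted library size. That size was the count outside the mitochondrial genome and those scaffolds, multiplied by the TMM normalisation factor of the library. The factor was 0.804 for library 6 and 1.24 for library 7, and 0.915 (library 8) to 1.07 (library 4) in the compared groups. Transcripts of the heart muscle cell were abundant on the length-corrected TPM scale. MYH6, the atrial myosin heavy chain, stood at 5026 to 6612 TPM in control and 4610.2 to 8466 TPM under DOCA plus JK07, and NPPA, atrial natriuretic peptide, at 3461 to 4927 TPM in control and 3182 to 4523 TPM. Of the ventricular markers, the myosin heavy chain MYH7 stood at 816 to 1135 TPM in control and 774 to 1832 TPM, above all controls in libraries 9 and 10 but not in library 8. The ventricular light chain MYL2 reached at most 24.96 TPM and the ventricular factor IRX4 was listed at 0 in every library. COL3A1, a fibroblast collagen, stood at 752 to 3168 TPM in control and 732 to 2079 TPM, so RNA of other cells was present in both groups.

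Under DOCA plus JK07, several genes of the contractile apparatus and of calcium release stood higher in all 3 libraries than in all 5 controls, among them MICAL1, MYO18B, MYH7B, TPM2 and RYR2. Genes of ribosomal proteins, the respiratory chain and NF-kB inflammation included more members below all controls than above. The natriuretic peptides and ERBB4, the receptor of JK07, overlapped between the groups. None of these differences passed the main test. Across 16307 genes tested with edgeR, 0 were called higher (0%) and 0 lower (0%) at an adjusted p under 0.05, and the lowest adjusted p was 0.283. At an unadjusted p under 0.05 there were 625 higher (3.83%) and 584 lower (3.58%) genes. By sign alone, 7979 of the 16307 genes had a positive and 8328 a negative log2 difference. DESeq2, run on the same libraries, called 213 higher (1.31%) and 144 lower (0.889%) of the 16201 genes to which it gave an adjusted p. Of these, 196 higher and 103 lower genes also had groups that did not overlap. Above 0 in all 8 libraries were 200 of the 213 higher and 100 of the 144 lower genes, so the remaining calls rested partly on a listed 0. Among all genes tested, 558 (3.42%) were higher in all 3 DOCA plus JK07 libraries than in all 5 controls, and 448 (2.75%) were lower. The count of called genes thus differed between the tests, and every gene named below is described by its values without an edgeR call. A DESeq2 adjusted p is mostly printed below for genes that DESeq2 called. Genes that it did not call are named as well. Their DESeq2 adjusted p values include 0.109 for ACTN2, 0.119 for ACAA2, 0.149 for PPARA, 0.234 for DUSP8 and 0.248 for BCL3. Named genes were mostly chosen by their unadjusted p in this same comparison. List shares below are to be set beside the 3.42% above and 2.75% below of all genes tested. List counts at an unadjusted p are to be set beside 3.83% and 3.58%.

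The similarity of the libraries was nearly the same within and between the groups. Spearman's rho over 8636 genes averaged 0.933 between controls, 0.923 between DOCA plus JK07 libraries and 0.920 between the groups, as a description, since genes are not independent replicates. The non-overlapping higher genes had a median log2 difference of 0.726 in size and the lower ones of 0.573, against 0.267 for all genes tested. They resembled all genes in span, with medians of 18.4 kb for the higher, 20.0 kb for the lower and 17.7 kb for all.

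**Figure D1:**
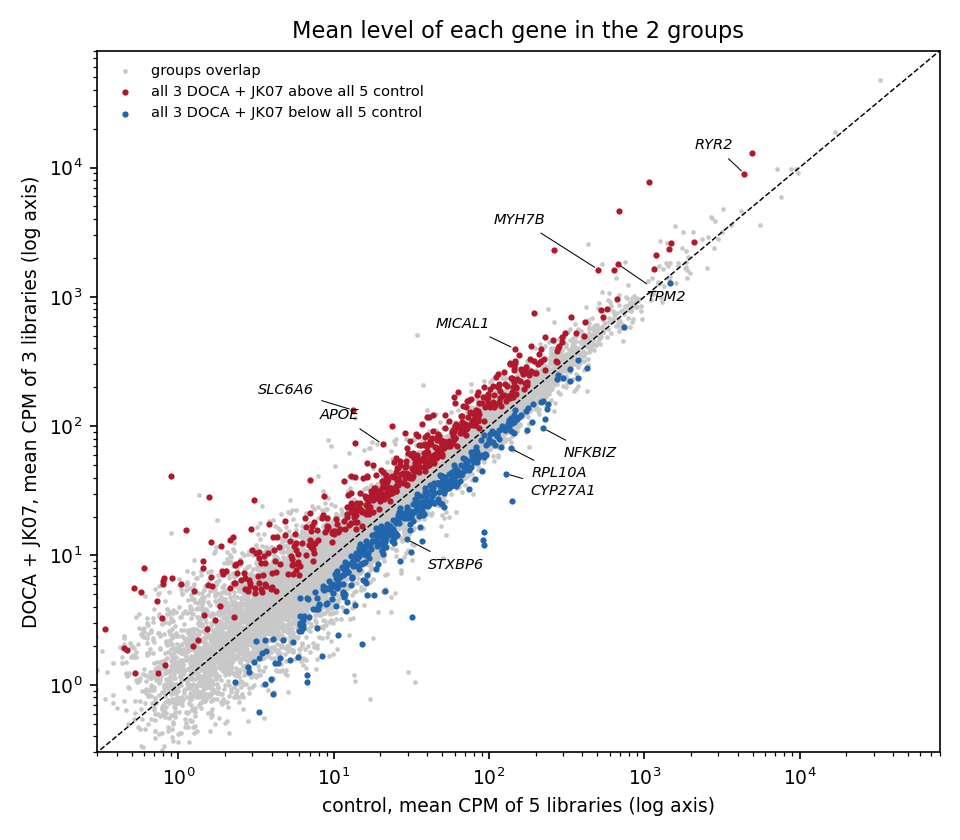
Mean CPM of each gene in 5 control libraries (horizontal, log axis) and 3 DOCA plus JK07 libraries (vertical, log axis), with genes above 0 in both means drawn and the dashed line marking equal means. Red points are genes above, and blue points genes below, every control; most genes lie along the line, and MICAL1, MYH7B and RYR2 lie above it.

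The genes with the smallest p were largely those of the contractile and cytoskeletal apparatus of striated muscle. MICAL1, an enzyme that oxidises actin filaments (chromosome 1, 75511693 to 75522765, minus strand, Sscrofa11.1), had 174, 109.5, 149, 135 and 164 CPM in the controls and 439.7, 359 and 393 CPM under DOCA plus JK07. Every DOCA plus JK07 library lay above every control, and the means were 146 ± 25.3 (SD, n = 5) and 397 ± 40.5 CPM (SD, n = 3). Its log2 difference was 1.44 (SE 0.17) with an edgeR adjusted p of 0.283 and a DESeq2 adjusted p of 4.57e-13. Under DOCA alone it stood at 1539 and 394 CPM, and library 7 fell within the range of the DOCA plus JK07 group.

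MYH7B, a slow-type myosin heavy chain gene (chromosome 17, 38362452 to 38386469, plus strand), had 435, 308, 702, 479.7 and 599.8 CPM in the controls. Under DOCA plus JK07 it had 1336, 1841 and 1703 CPM, each above the highest control. The log2 difference was 1.69 (SE 0.26, DESeq2 adjusted p = 3.20e-07). DOCA libraries 6 and 7 had 9353 and 1016 CPM, so they lay on either side of the DOCA plus JK07 range. MYO18B, an unconventional myosin needed for sarcomere assembly, had 216, 195, 278, 234 and 218 CPM in the controls against 503, 399 and 563 CPM. The groups did not overlap, and its log2 difference was 1.10 (SE 0.16, DESeq2 adjusted p = 1.35e-08). Both DOCA libraries were higher still, at 2181 and 841 CPM.

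TPM2, the beta-tropomyosin of thin filaments, had 352, 892, 943, 687 and 491 CPM in the controls and 1609.6, 1351 and 2437 CPM under DOCA plus JK07, with 2030.0 and 993 CPM under DOCA. All 3 DOCA plus JK07 libraries lay above the highest control, and the log2 difference was 1.42 (SE 0.35, DESeq2 adjusted p = 0.00671).

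Of 43 tested genes of the sarcomere and Z disc, 8 lay above all controls (18.6%) and 0 below, against 3.42% and 2.75% of all genes. At an unadjusted p under 0.05 there were 16 higher and 1 lower, DESeq2 called 4 higher and 0 lower, and edgeR called 0. The median log2 difference of the list was 0.32, against -0.0088 for all genes. Beside MYH7B and TPM2, the members above all controls included ACTN2, MYPN, PALLD, FHL1 and LMOD2. ACTN2, the alpha-actinin of the Z disc, had 888 to 1369.8 CPM in control and 1594 to 1685 CPM under DOCA plus JK07, and MYPN, myopalladin, had 137 to 183 and 197 to 275 CPM. LMOD2, a leiomodin that lengthens thin filaments, had 298 to 447 and 477 to 571 CPM. MYBPC3, cardiac myosin-binding protein C, had groups that overlapped slightly, with 1379, 2353, 2132, 1747 and 1333 CPM in control and 2336, 2883 and 4293 CPM under DOCA plus JK07. The summed level of 13 tested cardiomyocyte markers, some of them also in this list, ran from 28567 to 35248 CPM in control and from 34356 to 56625 CPM under DOCA plus JK07. The summed level of 13 tested ventricular markers was 3702 to 4451 CPM in control and 3889, 6307 and 6908 CPM in libraries 8, 9 and 10, so libraries 9 and 10 lay above all controls. The part of both sums in the sarcomere values was not tested, and in bulk libraries more cells of a type and more RNA per cell cannot be told apart.

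**Figure D2:**
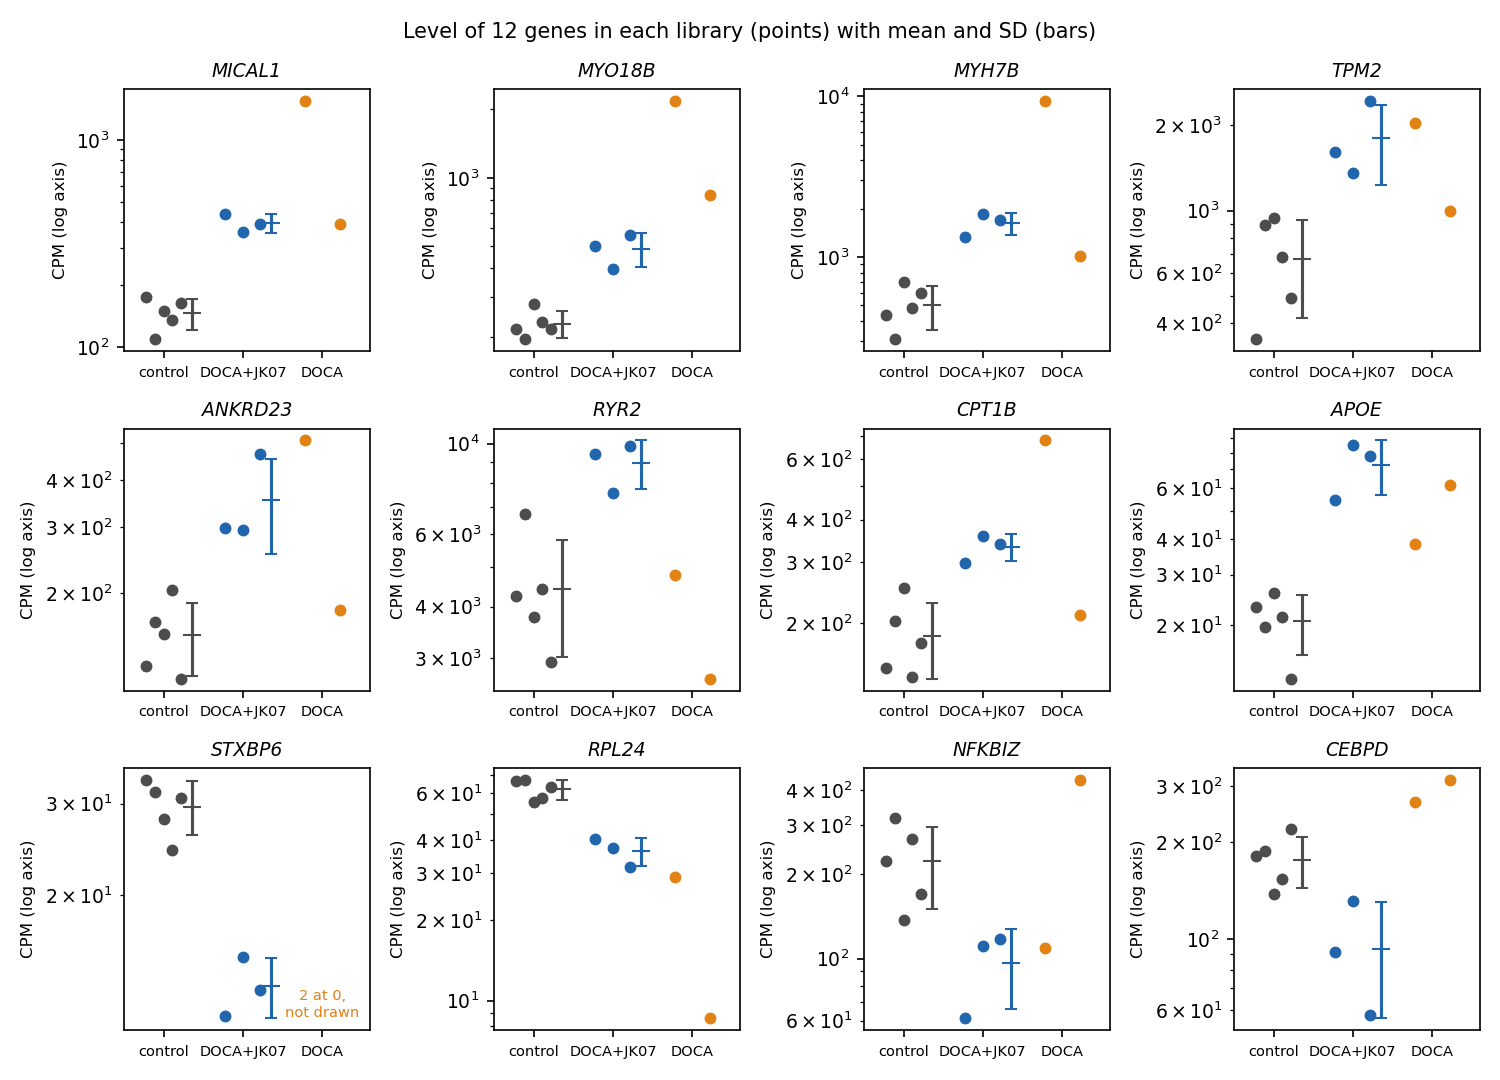
CPM (log axis) of 12 genes in each library, with points for the 5 control (grey), 3 DOCA plus JK07 (blue) and 2 DOCA libraries (orange) and bars for mean and SD of the first 2 groups. The 3 blue points lie outside the 5 grey ones in every panel, above them for MICAL1 through APOE and below them for STXBP6 through CEBPD; STXBP6 was listed at 0 in both DOCA libraries.

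Genes linked to stretch and hypertrophy of heart muscle included several with higher values. ANKRD23, an ankyrin repeat protein of the titin filament that responds to strain, had 128, 168, 156, 205 and 119 CPM in the controls and 298, 295 and 469.5 CPM under DOCA plus JK07 (log2 difference 1.19, SE 0.23, DESeq2 adjusted p = 2.08e-04). TRIM54, a muscle ubiquitin ligase, had 52.3, 28.1, 30.9, 48.4 and 46.6 CPM in control. Its DOCA plus JK07 libraries spread over 195, 102 and 53.3 CPM, with library 10 only just above the highest control. FHL1, a LIM protein that binds titin, had 629, 586, 636, 563 and 918 CPM in control and 923, 1020.3 and 946 CPM, and control library 5 nearly reached the DOCA plus JK07 values. XIRP1, an actin-binding protein of the intercalated disc, varied widely, over 122 to 1043 CPM in control and 664 to 2414 CPM under DOCA plus JK07, and the groups overlapped. Of 31 tested genes of the natriuretic, fetal and hypertrophy list, 4 lay above all controls (12.9%) and 0 below, 7 had an unadjusted p under 0.05 and a higher value, and DESeq2 called 2 higher and 0 lower. TNNT1, the slow skeletal troponin T, was a low gene of this kind outside the list, with 1.61, 4.88, 6.63, 1.61 and 4.51 CPM in control and 28.03, 13.7 and 11.2 CPM under DOCA plus JK07.

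The natriuretic peptides, the classical products of a loaded heart, did not separate the groups. NPPA had 3739.6, 3199, 3128, 3160.1 and 2568 CPM in the controls and 2657, 3006 and 3859 CPM under DOCA plus JK07, and its mean was 3159 ± 415 CPM (SD, n = 5) against 3174 ± 618 CPM (SD, n = 3). The log2 difference was 0.01 with an SE of 0.18, so a difference near that error was not detectable. NPPB, the B-type peptide, ranged over 28.1 to 214 CPM in control and 81.3 to 293 CPM under DOCA plus JK07, with 164 and 261 CPM under DOCA. Its log2 difference was 0.85 (SE 0.64, edgeR adjusted p = 0.95), and it was 0.35 without library 9 and 1.31 without control library 1. NPR2, the receptor of C-type natriuretic peptide, had 59.6 to 83.3 CPM in control and 85.5 to 105 CPM under DOCA plus JK07 without overlap.

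Calcium handling couples the action potential to contraction through entry channels and release from the sarcoplasmic reticulum. RYR2, the calcium release channel of that store (chromosome 14, 53652485 to 54192063, minus strand), had 4254, 6721, 3776, 4413 and 2938 CPM in the controls and 9408, 7566 and 9884 CPM under DOCA plus JK07. Control library 2 came nearest to the other group, and the log2 difference was 1.02 (SE 0.26, DESeq2 adjusted p = 0.0188). DOCA libraries 6 and 7, at 4766 and 2666 CPM, lay below all 3 DOCA plus JK07 libraries. CACNA1C, the pore of the L-type calcium channel, had 130.4, 185, 224, 141 and 119 CPM in control and 292, 307 and 236 CPM (log2 difference 0.80, SE 0.23, DESeq2 adjusted p = 0.0254). CAMK2A, a calcium/calmodulin-dependent kinase, had 179, 111, 183, 131 and 78.8 and 399.8, 224 and 297 CPM. For CACNA1C and CAMK2A, library 6 of DOCA had 514 and 990 CPM, above every other library, and library 7 had 114 and 197 CPM. JPH1, a junctophilin that holds the release site to the surface membrane, had 67.2, 83.95, 68.98, 68.4 and 78.2 and 142, 121 and 88.4 CPM, the library 10 value lying closest to the controls.

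In all, 6 of 38 tested calcium genes lay above all controls (15.8%) and 1 below (2.63%), and DESeq2 called 4 higher and 0 lower. CACNA1H, a T-type channel, and S100A1, a calcium sensor with few counts, were the other 2 above. CALR, the calcium-binding chaperone of the endoplasmic reticulum, was the member below, with 128 to 200.1 CPM in control and 113 to 125 CPM. The list's median log2 difference was 0.10, and 0.042, 0.027 and 0.037 without control library 1, control library 4 and library 10. PLN, phospholamban, the brake of the sarcoplasmic calcium pump, had 149.9, 152, 70.3, 125 and 77.8 CPM in control and 70.04, 50.4 and 86.6 CPM under DOCA plus JK07, with overlap. Its log2 difference was -0.74 (SE 0.32, edgeR adjusted p = 0.675), and it stood at 13.4 and 9.56 CPM under DOCA.

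Among 31 tested ion channel genes of the action potential, 3 lay above all controls (9.68%) and 0 below. Among them was KCNIP2, a subunit of the transient outward potassium channel, with 20.2, 53.8, 55.4, 64.3 and 15.01 CPM in the controls and 80.1, 68.97 and 83.002 CPM under DOCA plus JK07. Control library 4 came nearest to the DOCA plus JK07 range. Neither test called KCNIP2 (DESeq2 adjusted p = 0.449). GJA5, the atrial gap junction connexin, ran the other way with overlap, at 66.2, 63.4, 51.1, 50.7 and 52.7 CPM in control and 33.3, 39.1 and 51.7 CPM. ATP1B4, a muscle member of the sodium pump beta-subunit family, had 87.7, 98.5, 76.2, 93.8 and 64.04 CPM in control and 165, 195 and 164 CPM, each above every control.

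Genes of fuel use lay on both sides of the controls. CPT1B, which admits long-chain fatty acids to the mitochondrion, had 147, 203, 252, 139 and 174 CPM in the controls and 299, 358 and 339 CPM under DOCA plus JK07 (log2 difference 0.86, SE 0.21, DESeq2 adjusted p = 0.00349). MLYCD, which removes the malonyl-CoA that inhibits CPT1B, had 11.3, 10.6, 18.3, 7.62 and 17.1 CPM in control and 24.98, 27.5 and 24.3 CPM. PPARA, the nuclear receptor of fatty acid catabolism, lay above all controls mainly through library 8, with 87.2, 62.9, 85.1, 87.4 and 61.2 CPM in control and 299, 95.7 and 88.3 CPM. In contrast ACAA2, the last enzyme of the oxidation cycle, had 41.2, 52.05, 32.7, 39.3 and 36.5 CPM in control and 28.2, 15.6 and 29.2 CPM, all 3 below the controls. Of 43 tested fatty acid genes, 26 had a positive log2 difference, 6 lay above all controls (14%) and 2 below (4.65%), and DESeq2 called 2 higher and 0 lower.

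In glycogen metabolism, GYS1, muscle glycogen synthase, had 47.7, 60.5, 61.9, 52.4 and 56.1 CPM in control and 72.2, 80.8 and 77.4 CPM, and PYGB, a glycogen phosphorylase, had 218, 353, 279.7, 255 and 186 and 368, 468 and 559.8 CPM. HK2, an insulin-responsive hexokinase, was listed at 0 in 3 controls and had 62.4, 9.54 and 8.57 CPM under DOCA plus JK07, carried by library 8. TPI1, a glycolytic enzyme, lay below all controls at 37.5 to 49.3 CPM against 51.8 to 62.6 CPM. Among the 32 tested genes of glucose use, 16 had a positive log2 difference, 3 lay above (9.38%) and 1 below (3.12%).

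Nuclear genes of oxidative phosphorylation, the respiratory chain and ATP synthase, lay mostly on the lower side. Of 54 tested, 51 had a negative log2 difference, against 8328 of all 16307 genes tested. Within the list, 7 lay below all controls (13%) and 0 above, and the list median was -0.38. DESeq2 called 4 lower and 0 higher. ATP5PB, a stalk subunit of ATP synthase, had 91.3, 117, 77.5, 99.1 and 87.8 CPM in the controls and 64.96, 52.04 and 66.9 CPM under DOCA plus JK07, against 20.8 and 36.03 CPM under DOCA. Its log2 difference was -0.62 (SE 0.17, DESeq2 adjusted p = 0.023). SDHD, a membrane anchor of complex II, had 40.4, 53.3, 30.3, 36.2 and 31.4 and 23.4, 15.2 and 23.8 CPM, and NDUFB4, a complex I subunit with few counts, had 13.98, 13.4, 9.14, 12.03 and 8.50 and 4.57, 3.98 and 6.48 CPM. The per-library list medians were -0.38, -0.75 and -0.03 in libraries 8, 9 and 10, relative to the control mean of log2(CPM + 0.5), so library 10 lay among the controls, which ran from -0.25 to 0.27. The list median was -0.18 without library 9 and -0.58 without library 10.

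The 13 mitochondrially encoded genes, whose RNA is made outside the nucleus, all had positive log2 differences with a median of 0.58, and none separated the groups. Their summed level was 3590 to 7064 CPM in control and 5797, 6022 and 12579 CPM in libraries 8, 9 and 10. Without library 10 the median was 0.10. In the tricarboxylic acid cycle list, 3 of 29 tested genes lay below all controls (10.3%) and 0 above. They were PDHB, a subunit of pyruvate dehydrogenase, with 35.8 to 45.6 CPM in control and 26.1 to 31.2 CPM, SUCLG1 of succinate-CoA ligase, and the kinase PDK1. CS, citrate synthase, had 174, 238, 186, 167 and 153 CPM in control and 139.7, 131 and 164 CPM, which overlapped (log2 difference -0.34, SE 0.17, edgeR adjusted p = 0.781).

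Ribosomal protein genes had the highest share of members below all controls among the lists. Of 61 tested, 59 had a negative log2 difference, 18 lay below all controls (29.5%) and 0 above, and 32 had an unadjusted p under 0.05. DESeq2 called 8 lower, and the list median was -0.43. RPL24, of the large subunit, had 66.7, 67.2, 55.7, 57.4 and 63.4 CPM in the controls and 40.3, 37.5 and 31.7 CPM under DOCA plus JK07, with a log2 difference of -0.76 (SE 0.13, DESeq2 adjusted p = 5.37e-06). RPS3A, of the small subunit, had 102, 99.6, 85.4, 79.03 and 97.8 and 54.9, 56.4 and 61.9 CPM, and RPL10A had 120.1, 155, 119.6, 131 and 164 and 60.1, 89.3 and 53.02 CPM. The DOCA libraries stood at 29.1 and 8.58 CPM for RPL24 and 30.6 and 26.2 CPM for RPS3A. Ribosomal protein genes, mostly short and highly spliced with many near-identical copies, are uncertain in counting, though RPS3A is annotated here over 133.7 kb. The list also serves as one of the quality measures. Summed over the list, controls had 4461 to 6241 CPM and the DOCA plus JK07 libraries 3320 to 4406 CPM, without overlap. Histone genes showed 1 of 12 below all controls (8.33%, against 2.75% of all genes) and a median log2 difference of -0.35.

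**Figure D3:**
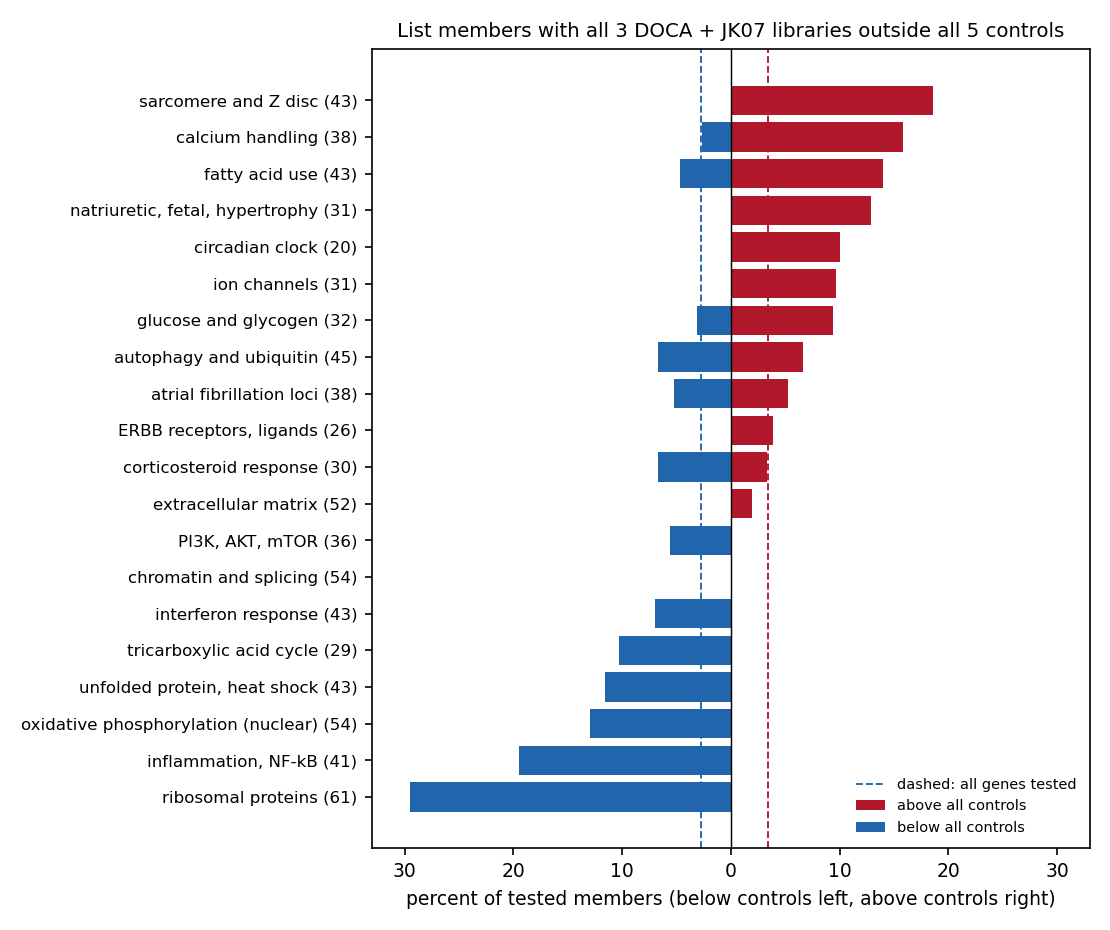
Percent of tested members of 20 lists (number tested in brackets) that lay above every control (red, right) or below every control (blue, left) in all 3 DOCA plus JK07 libraries. Dashed lines mark the same percents over all genes tested, 3.42% above and 2.75% below; sarcomere genes reach 18.6% on the right and ribosomal protein genes 29.5% on the left.

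Genes of inflammation under NF-kB, the transcription factor of the acute inflammatory response, had mostly lower values under DOCA plus JK07. Of 41 tested, 38 had a negative log2 difference, 8 lay below all controls (19.5%) and 0 above, the median was -0.58, and DESeq2 called 3 lower and 0 higher. NFKBIZ, a nuclear cofactor of NF-kB, had 223, 317, 138, 267 and 170.4 CPM in the controls and 61.2, 111 and 117 CPM under DOCA plus JK07 (log2 difference -1.21, SE 0.33, DESeq2 adjusted p = 0.0151). CEBPD, an acute-phase transcription factor, had 182, 188, 138, 153 and 220.3 CPM in control and 91.04, 131 and 57.6 CPM, while DOCA libraries 6 and 7 had 268 and 314 CPM, above every control. BCL3, an NF-kB regulator, likewise had 13.7 to 19.3 CPM in control, 9.49 to 13.3 CPM under DOCA plus JK07 and 88.8 and 68.4 CPM under DOCA. Other members did not share this, and NFKBIZ had 109 and 434 CPM under DOCA, on either side of the control range.

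Control library 2 was far above the other controls for several of these genes. TNFAIP3, a brake on NF-kB, had 59.7, 303, 39.7, 35.004 and 27.9 CPM in the controls and 15.3, 19.01 and 10.9 CPM under DOCA plus JK07, and PTGS2, inducible cyclooxygenase, had 102, 261, 32.2, 19.8 and 42.4 and 8.98, 19.7 and 10.7 CPM. ICAM1 and VCAM1, adhesion molecules for leukocytes, reached 519.6 and 379.6 CPM in that library, against 19.1 to 31.5 and 8.91 to 15.3 CPM under DOCA plus JK07. Under DOCA, libraries 6 and 7 had 23.9 and 94.1 CPM for TNFAIP3 and 29.1 and 17.6 CPM for PTGS2. For ICAM1 they had 93.5 and 83.3 CPM and for VCAM1 37.5 and 18.9 CPM. None of these DOCA values lay above all controls. The per-library list medians were -0.44, -0.21 and -0.85 in libraries 8, 9 and 10 against -0.30 to 0.21 in the controls, so library 9 lay among the controls. At an unadjusted p under 0.05 there were 6 lower and 1 higher members. The list median of the log2 differences was -0.48 without control library 2 and -0.37 without library 10. The summed level of the list was 2113 to 5163 CPM in control and 1489 to 2197 CPM under DOCA plus JK07, so the sums overlapped. TNF, the cytokine, was listed at 0 in libraries 8 to 10 and in control library 5, and had 3.33 to 28.7 CPM in the other controls.

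Macrophage markers mostly had lower values as well. Of 19 tested, 17 had a negative log2 difference and the median was -0.55 (-0.27 without control library 5). Below all controls lay 1, the hyaluronan receptor LYVE1 (5.26%, against 2.75% of all genes). LYVE1 was low, with 5.23 to 18.3 CPM in control, 4.15 and 3.07 CPM in libraries 8 and 9 and a listed 0 in library 10. The summed level of the 19 markers was 806 to 2246 CPM in control and 823 to 1416 CPM under DOCA plus JK07, so the ranges overlapped. None of the 19 was at 0 in all 3 DOCA plus JK07 libraries, while LYZ and MARCO were too low to be tested. CD163, a macrophage scavenger receptor, had 38.6 to 231 TPM in control and 22.1 to 117 TPM under DOCA plus JK07. PLEK, pleckstrin of platelets and leukocytes, had 33.2, 56.7, 16.9, 8.05 and 9.45 CPM in the controls and was listed at 0 in all 3 DOCA plus JK07 libraries and both DOCA libraries. FGR, a kinase of myeloid cells, had 35.7, 18.7, 26.1, 49.1 and 55.7 and 12.7, 13.5 and 12.5 CPM. The part of these cells in the inflammation values was not tested.

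Of 43 tested interferon response genes, 40 had a negative log2 difference, 3 lay below all controls (6.98%) and 0 above, and the median was -0.44. TAP1, the peptide transporter of antigen presentation, had 48.9, 30.9, 68.1, 49.5 and 43.6 CPM in the controls and 26.5, 25.6 and 25.005 CPM under DOCA plus JK07 (log2 difference -0.91, SE 0.24, DESeq2 adjusted p = 0.0107). B2M, the invariant chain of MHC class I, had 130.4, 105, 135, 155 and 172 and 87.2, 83.6 and 105 CPM. Libraries 8 and 9 had list medians of -0.74 and -0.67 and library 10 had 0.14, against -0.43 to 0.56 in the controls. Libraries 8 and 9 thus lay below all controls and library 10 among them. The list median was -0.89 without library 10, -0.28 without library 8 and -0.18 without control library 4.

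**Figure D4:**
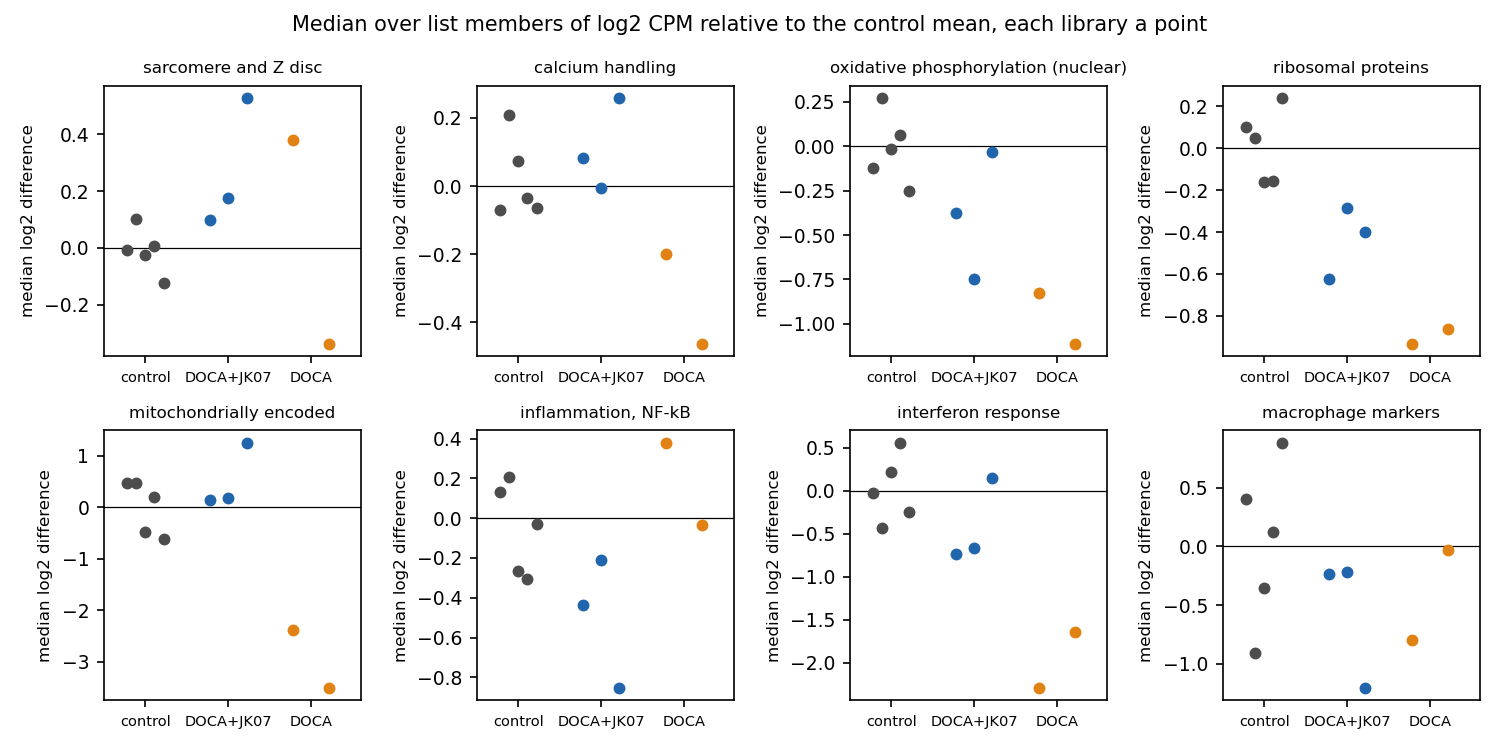
Median over the members of 8 lists of the difference in log2(CPM + 0.5) from the control mean (vertical axis), with 1 point per library for control (grey), DOCA plus JK07 (blue) and DOCA (orange). Ribosomal protein medians of the 3 DOCA plus JK07 libraries lie below all controls, while for interferon and mitochondrially encoded genes library 10 stands apart from libraries 8 and 9.

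Chaperones and the unfolded protein response also included lower members. Of 43 tested, 5 lay below all controls (11.6%) and 0 above, with a median log2 difference of -0.18 (-0.086, -0.10 and -0.097 without control library 1, library 8 and library 10), and DESeq2 called 4 lower and 0 higher. HSP90AA1, the stress-inducible HSP90, had 350.3, 357, 338, 278 and 339 CPM in control and 212, 190.3 and 268 CPM. HSPD1, the mitochondrial chaperonin, had 80.4, 70.04, 50.9, 66.9 and 57.7 and 49.1, 29.2 and 35.7 CPM. ATF6, a sensor of the endoplasmic reticulum, had 107, 111, 97.01, 89.7 and 104 CPM in the controls and 75.6, 76.9 and 72.1 CPM under DOCA plus JK07, a narrow range below all of them. In protein turnover, 3 of 45 genes lay above (6.67%) and 3 below (6.67%), against 3.42% and 2.75% of all genes. KLHL40, a stabiliser of thin filament proteins, had 27.9, 27.5, 29.3, 20.8 and 28.6 and 62.6, 36.3 and 51.7 CPM, and ASB2, a ubiquitin ligase adaptor of muscle, had 169, 104, 177, 119.6 and 113 and 188, 420.5 and 298 CPM. ATG3, an enzyme of autophagosome formation, ran lower, at 21.9, 23.7, 28.1, 25.4 and 25.3 CPM in control and 15.3, 17.5 and 12.04 CPM.

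Some genes with small p belonged to no list. APOE, the lipid carrier apolipoprotein E (chromosome 6, 51372292 to 51375330, plus strand), had 23.2, 19.7, 25.9, 21.4 and 13.02 CPM in the controls and 54.8, 84.8 and 77.8 CPM under DOCA plus JK07, with 38.5 and 61.5 CPM under DOCA. Its log2 difference was 1.81 (SE 0.24, DESeq2 adjusted p = 1.83e-10). GRIN2A, a glutamate receptor subunit, had 44.97, 70.2, 42.3, 60.99 and 78.9 and 198, 174 and 131 CPM, and MKNK2, a kinase of the translation factor eIF4E, had 122, 104, 129.9, 113 and 113 and 254, 203 and 178 CPM. SLC6A6, the taurine transporter, had 13.7, 11.99, 9.42, 14.3 and 17.5 CPM in control and 277, 97.1 and 24.5 CPM, so its libraries differed over a wide range and library 10 lay closest to the controls. On the lower side STXBP6, a SNARE-binding protein, had 33.3, 31.6, 27.97, 24.4 and 30.8 CPM in the controls and 11.7, 15.2 and 13.1 CPM under DOCA plus JK07 (log2 difference -1.15, SE 0.17, DESeq2 adjusted p = 4.66e-09). CYP27A1, a sterol hydroxylase of bile acid and oxysterol synthesis, had 93.8, 101, 164, 148 and 136 CPM in control and 28.96, 28.97 and 70.8 CPM, with 37.6 and 143 CPM under DOCA. RECK, an inhibitor of matrix metalloproteinases, had 38.9, 38.7, 31.4, 38.01 and 37.5 and 26.2, 20.6 and 19.1 CPM, and KRIT1, a junction protein, had 40.8, 52.05, 46.8, 45.3 and 35.2 and 22.95, 26.8 and 26.7 CPM.

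The receptor that JK07 targets did not separate the groups. ERBB4 (chromosome 15, 113974437 to 115096565, minus strand) had 236, 542, 376, 348 and 276 CPM in the controls and 369.6, 178 and 374 CPM under DOCA plus JK07, with means of 356 ± 118 CPM (SD, n = 5) and 307 ± 112 CPM (SD, n = 3). The log2 difference was -0.21 (SE 0.34, edgeR adjusted p = 0.999), and it was 0.063 without library 9 and -0.0099 without control library 2. ERBB2, its partner, ranged over 39.8 to 56.6 CPM in control and 27.4 to 83.002 CPM, wider than the controls, and ERBB3 over 7.85 to 27.9 and 10.9 to 34.7 CPM. NRG1, a neuregulin ligand, had 23.99, 5.84, 19.9, 13.5 and 14.9 CPM in control and 42.01, 142 and 11.8 CPM, so libraries 8 and 9 lay above all controls and library 10 below 4 of the 5. ERRFI1, a feedback inhibitor of ERBB receptors, had 24.2 to 59.7 CPM in control and 14.2 to 49.8 CPM, against 153 and 242 CPM under DOCA. Of 26 tested genes of the ERBB list, 1 lay above all controls (3.85%) and 0 below, near the 3.42% and 2.75% of all genes. The member above was the shedding protease ADAM19, at 239 to 306 CPM against 149 to 223 CPM in control. Below the receptor, 0 of 36 PI3K, AKT and mTOR genes lay above all controls and 2 below (5.56%), PIK3CA and PIK3R1. In the MAPK list 1 of 35 lay on each side (2.86% each), also near the shares of all genes. The member above was the phosphatase DUSP8, at 30.7 to 32.1 CPM against 7.92 to 23.2 CPM in control.

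Genes of the corticosteroid response stood as follows. NR3C2, the mineralocorticoid receptor, had 60.996, 77.6, 93.6, 76.7 and 60.2 CPM in control and 66.8, 81.3 and 100.1 CPM under DOCA plus JK07 (log2 difference 0.16, SE 0.20). Without library 10 that difference was 0.0039, and leaving out any other library it ran from 0.099 to 0.30. FKBP5, a standard corticosteroid target, had 321, 408, 186, 389.6 and 561 CPM in control and 347, 184 and 81.5 CPM, with overlap and a wide spread (log2 difference -0.87, SE 0.49, edgeR adjusted p = 0.834), and the difference was -1.49 without library 8 and -0.49 without library 10. Of 30 tested genes 1 lay above all controls (3.33%) and 2 below (6.67%), against 3.42% and 2.75% of all genes. The member above was the clock gene PER1, at 475, 396, 313, 398 and 502 CPM in control and 637, 777 and 518 CPM, and those below were CEBPD and KLF9. KLF9, a steroid-responsive repressor, had 266, 239, 181, 238 and 273 CPM and 179, 156 and 112 CPM. CRY2, a clock repressor, lay above all controls as well, at 301, 432 and 192 CPM against 165, 133, 124, 158 and 155 CPM. The hour of sampling is not stated in the labels, and its part in the clock genes was not tested.

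**Figure D5:**
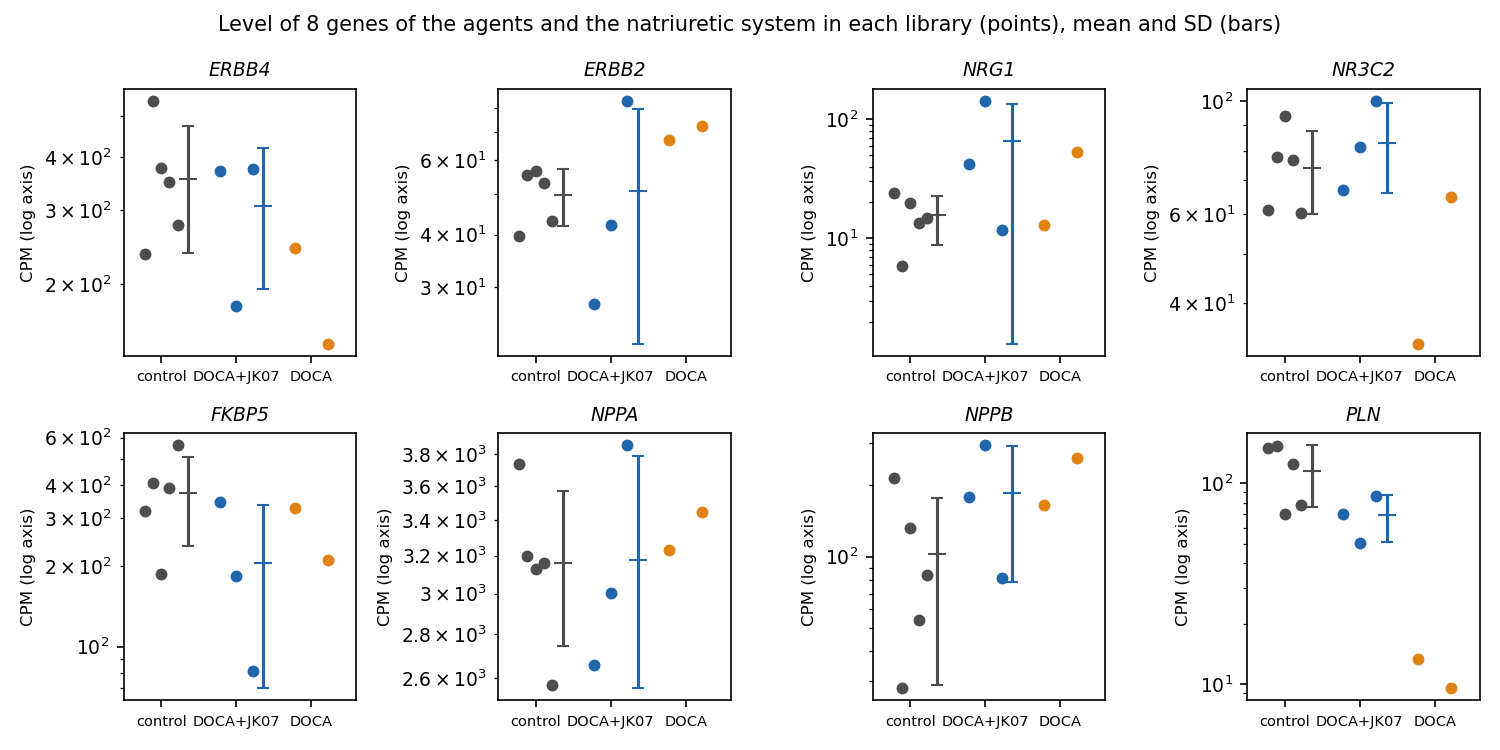
CPM (log axis) of 8 genes in each of the 5 control (grey), 3 DOCA plus JK07 (blue) and 2 DOCA libraries (orange), with bars for mean and SD of the first 2 groups. Grey and blue points overlap in all 8 panels; NRG1 spreads from 11.8 to 142 CPM under DOCA plus JK07.

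Among cardiac transcription factors, 1 of 31 tested lay above all controls (3.23%) and 0 below, near the 3.42% and 2.75% of all genes. The member above was MEF2D, a factor of muscle differentiation and hypertrophy. It had 153, 108, 114, 110.5 and 107 CPM in control and 185, 187 and 189 CPM under DOCA plus JK07 (log2 difference 0.66, SE 0.15, DESeq2 adjusted p = 9.53e-04). TBX5, a factor of atrial identity, spread over 54.7, 143 and 261 CPM under DOCA plus JK07 against 67.8 to 146 CPM in control. GRK5, a receptor kinase of heart failure signalling, had 86.6, 69.4, 81.7, 71.9 and 81.99 CPM in control and 107, 105 and 117 CPM. Extracellular matrix genes stayed near the share of all genes, with 1 of 52 above all controls (1.92%), the hyaluronan synthase HAS1, and 0 below. ELN, elastin, was high in libraries 8 and 9 but not in library 10, at 865, 799 and 239.7 CPM, with 262, 149, 246, 198 and 463 CPM in control. Of 38 genes at loci for atrial fibrillation, 2 lay above all controls (5.26%) and 2 below (5.26%). NAV2, a neuron navigator, was one of those above, with 202, 211, 258, 213 and 249.7 CPM in control and 344, 310.3 and 344 CPM.

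Markers of other cell types mostly overlapped between the groups. None of 19 fibroblast, 20 endothelial, 17 mural, 15 atrial, 7 lymphocyte, 7 Schwann cell and neuron, 9 adipocyte or 2 erythrocyte markers tested lay outside all controls. The summed fibroblast level was 7328 to 20968 CPM in control and 6827 to 16403 CPM under DOCA plus JK07, and that of endothelial markers 1328 to 2592 and 1424 to 2004 CPM. Of the ventricular markers, 1 of 13 (7.69%) lay above all controls, S100A1. Of the mesothelial and epicardial markers, 1 of 8 (12.5%) did, HAS1. The median log2 difference of that list was 0.59, and -0.21 without library 10, and its summed level was 91.8 to 349 CPM in control and 56.1 to 315 CPM under DOCA plus JK07. The adipocyte marker ADIPOQ was listed at 0 in every library.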

How the data were processed

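Nuclear RNA of sorted minipig cardiomyocytes was measured in 5 control and 3 DOCA plus JK07 libraries, with 2 DOCA libraries set beside them. Per the labels' protocols, RNA was taken with TRIzol and libraries were made with a TruSeq RNA kit. The submitters' processing notes name SAMtools, StringTie, edgeR and the build Sscrofa11.1; aligner, versions, annotation release and strand setting are not given in the sources used here. The authors deposited a table of estimated counts without gene names, and, per the file headers, coverage signal, FPKM and TPM of 35670 identifiers per library. Counts were joined to sorted identifiers: 99.998% of values were 0 in both tables or neither, against 62.61% after moving by 1 line. The counts were whole as deposited, and rounding changed none. Of coverage values above 0, 4.22% lay under 1. A listed 0 was read as low coverage or none, and which of these held was not tested. FPKM entered no test. TPM was rescaled over nuclear genes. The files gave a symbol for 17640 identifiers and the reference table for 119 more.

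Library size left out the mitochondrial genome and the ribosomal RNA scaffolds, which held 77.5% to 90.8% of 28.1 to 106 M total counts (M, mega). The quasi-likelihood test of edgeR 4.0.16 (R 4.3.3, filterByExpr, TMM over 10 libraries) had group as its only term, with Benjamini-Hochberg adjustment over 16307 genes and a threshold of 0.05. The common coefficient of variation was 0.702, with a median of 2.18 prior degrees of freedom. SE is the absolute log2 difference divided by the root of F. DESeq2 1.42.0 and limma 3.58.1 were alternatives. Scripts were tested on simulated data. Each comparison with the DOCA libraries would share the controls, so only their values are given.

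The compared groups and the 42 gene lists were chosen with earlier results of these data known. The rule for named genes took called genes: the 12 of smallest p on each side, the 6 largest above 0 in all libraries, up to 4 per list, and 12 fixed genes (ERBB4, ERBB2, ERBB3, NRG1, ERRFI1, NR3C2, FKBP5, NPPA, NPPB, PLN, CS and TBX5). Because edgeR called 0, an unadjusted p under 0.05 replaced the call after the values were seen. Further members outside all controls were named after their values were seen, too. Some genes are not reported here.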

Additional observations from a re-analysis of the deposited data

Results flagged for a closer look

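In 7 of 129 values checked, 1 control library stood apart from the other 4, its gap to the nearest exceeding 0.71 of the controls' whole range (Dixon's critical value for 5 samples); chance flags about 1 in 20 such groups. The groups of 3 and 2 libraries were not checked, nor was every gene printed above. Among those left out were ICAM1 and VCAM1, at 519.6 and 379.6 CPM in control library 2. The other controls reached at most 54.2 and 21.9 CPM for these genes, so the number flagged does not cover all outlying control values. High values were TNFAIP3 in control library 2 at 303 CPM, SUCLG1 in library 2 at 115 CPM, FHL1 in library 5 at 918 CPM and MEF2D in library 1 at 153 CPM. Low values were RECK in library 3 at 31.4 CPM, HSP90AA1 in library 4 at 278 CPM and KLHL40 in library 4 at 20.8 CPM. All 7 genes had groups that did not overlap. Named genes were mostly chosen by their unadjusted p in this same comparison, so this is no test of the effect of these values.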

How the results depend on the processing

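No paired analysis was possible because the labels number the libraries 1 to 10 and the groups share no number. Under edgeR with upper quartile scaling, all 10 libraries in 1 model, no filter, genes above 0 in all 8 libraries only, or a library size with mitochondrial and ribosomal RNA, 0 genes were called, as with limma voom with quality weights and limma on log2(TPM + 1) and log2(TPM + 0.1). Their lowest adjusted p values ran from 0.0615 to 0.814. DESeq2 called 213 higher and 144 lower genes and had 888 lower genes at an unadjusted p under 0.05. With all 10 libraries in 1 model 359 higher and 356 lower genes had an unadjusted p under 0.05. The cause of these differences was not tested.

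Leaving out 1 library at a time, edgeR called 0 to 10 higher and 0 to 3 lower genes. All but 1 of these calls came without library 10: KLHL21, SLC6A6 and 8 genes without a symbol higher, and KCNQ5, SLIT1 and ADAM22, listed at 0 in libraries 8 and 9, lower. RELN was called lower without library 9. Genes outside all controls numbered 692 to 1242 higher and 621 to 1140 lower, as fewer libraries overlap less. Those with an unadjusted p under 0.05 numbered 488 to 698 higher and 417 to 594 lower. DESeq2, left out in the same way after its result was seen, called 161 to 293 higher and 131 to 293 lower genes.

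Of 2121 values of named genes under these alternatives 14 changed sign, in 5 of the fixed genes. ERBB2 went from 0.03 to -0.23 with voom, -0.16 with log2(TPM + 1) and -0.18 with log2(TPM + 0.1), and NPPA from 0.01 to -0.017, -0.076 and -0.076. Leaving out 1 library, ERBB2 ran from -0.51 to 0.33, NPPA from -0.16 to 0.12, ERBB4 from -0.38 to 0.063, ERBB3 from -0.0061 to 0.76 and TBX5 from -0.052 to 0.98. The TPM scale moved the median of all genes from -0.0088 to -0.069 and -0.076.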

Other observations

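The most abundant transcripts without a symbol that lay above all controls were neighbours on chromosome 2. ENSSSCG00000056754 (6804687 to 6811446, minus strand, Sscrofa11.1) had 4587, 5061, 5688, 4434 and 4789 CPM in the controls, 17903 and 6068 CPM under DOCA and 15783, 15936 and 7323 CPM under DOCA plus JK07. It lies wholly within LOC100513133 of RefSeq (6803590 to 6811708). ENSSSCG00000044913 (6797358 to 6803782, minus strand), which overlaps that gene by 193 bp, had 1134, 1248, 829, 1310.1 and 820.5 CPM in the controls, 1379 and 743 CPM under DOCA and 10620.1, 11271 and 1454 CPM under DOCA plus JK07. Libraries 8 and 9 thus stood far above library 10, which lay just above the highest control. DESeq2 gave adjusted p values of 4.88e-05 and 5.61e-05. Both were chosen after their values were seen.

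Library 10 differed from libraries 8 and 9 in other genes too. CDK1, the kinase of mitotic entry, had 118, 79.1 and 21.4 CPM in libraries 8, 9 and 10 against 28.3, 19.7, 16.5, 25.98 and 34.02 CPM in the controls. PLIN2, a lipid droplet coat protein, had 145, 70.9 and 21.4 CPM against 16.6, 14.4, 27.4, 17.7 and 49.97 CPM, and PDE7A, a cyclic AMP phosphodiesterase, had 408, 380.4 and 167 CPM against 214, 136, 123, 185 and 220.5 CPM. In each, libraries 8 and 9 lay above every control and library 10 within the control range.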
